A study of Sus scrofa with 48 samples.

Results

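The comparison described here is that of pigs from a low and a high residual feed intake (RFI) line on the same diet, high in fat and fiber (HF). RFI is the feed an animal eats beyond what its growth and maintenance predict, so that low RFI pigs are the efficient ones. Perirenal adipose tissue (PRAT), the visceral fat around the kidneys, was profiled on one-colour porcine expression microarrays in 48 castrated male Large White pigs aged 132 days, and the 24 arrays labelled HF were taken, 12 from low RFI pigs and 12 from high RFI pigs. The remaining 24 pigs, 12 of each line, ate a low-fat diet rich in starch and poor in fiber (LF). Both diets were offered without restriction and at the same energy content; the HF diet held more plant oil and straw and less starch. No pig belonged to both diets, so the line difference measured on LF came from other animals than the one measured on HF. Each line is a single selected population whose pigs share ancestors, so the effect of selection on RFI cannot be told apart from other differences that the populations had come to carry.

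White adipose tissue stores fatty acids as triglycerides, releases them on demand and secretes hormones such as leptin and adiponectin. Adipocytes make new fatty acids through fatty acid synthase, under regulators that include SREBF1 and the glucose-sensing pair formed by ChREBP and MLX. PPARG acts in lipid metabolism and adipocyte differentiation. Adipocytes also carry mitochondria and peroxisomes that oxidise fatty acids, and enzymes and metal-binding proteins that buffer oxidative stress.

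Levels are given as log2 signal above the median probe of the same array, so that a level of 0 is that of the median probe. A difference is the mean of low RFI pigs minus that of high RFI pigs on HF, on this log2 scale, and levels of different genes were not compared because probes differ in brightness. A probe was called when limma gave an unadjusted p below 0.01, a fold above 1.1 and a Benjamini-Hochberg (BH) adjusted p below 0.08 over all tested probes, and a gene was called when its brightest probe was called. The 24 HF arrays had a median signal between 120.75 and 178 and between 38875 and 47814 probes well above background, with no saturated spot. Each of these arrays correlated at 0.992 to 0.995 with the mean of the others. Such values largely reflect that probes differ in brightness, so they could reveal only an array that differed grossly. The adipocyte markers summed to 12.50 to 12.83 in low RFI pigs and to 12.42 to 12.83 in high RFI pigs, with FABP4 the brightest. Kidney markers summed to 3.50 to 4.33 and 3.55 to 4.23 in the respective lines, with 5 of the 8 on the array too dim to be tested, and adrenal markers to 2.12 to 3.62 and 2.39 to 3.71.

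Of 43614 tested probes, 432 differed between the lines on HF (0.991%), 236 of them higher (0.541%) and 196 lower (0.449%) in low RFI pigs. The median difference over all tested probes was 0.00, and the median size among called probes was 0.49, with 30 probes beyond a fold of 2. Centring on the E1A spike-in controls in place of the array median gave 180 higher and 96 lower probes, while the balance turned with the 75th percentile (199 higher, 238 lower) and with normexp and quantile normalization (241 higher, 248 lower), so neither direction prevailed under every scaling. Among 10588 genes with a symbol, 98 gene names were called (0.926%), 64 higher (0.604%) and 34 lower (0.321%) in low RFI pigs, and 6 of them exceeded a fold of 2. MTERF3 and MTERFD1 among these are the current and the older name of one gene. Another 242 called probes carried no gene symbol. Lines overlapped at nearly every called probe: only 5 called probes separated all 12 low RFI pigs from all 12 high RFI pigs (0.0115% of tested probes did), and PTPLA was the 1 called gene to do so at its brightest probe (0.00944% of tested genes did).

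The second principal component of the 24 HF arrays, with 10.9% of the variance, differed between the lines by 28.1 in score, 14.05 ± 16.3 in low RFI against -14.05 ± 12.9 in high RFI pigs (mean ± SD, n = 12; two-sided permutation test, p = 0.00018, adjusted p = 0.00054 over 3 components). It was above 0 in 9 low RFI and 2 high RFI pigs. The first component, with 18.1% of the variance, and the third, with 8.92%, gave adjusted p = 0.256 and 0.143 in the same permutation test. With every probe scaled to the same variance, the second component gave an adjusted p of 0.253 in that permutation test.

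**Figure D1:**
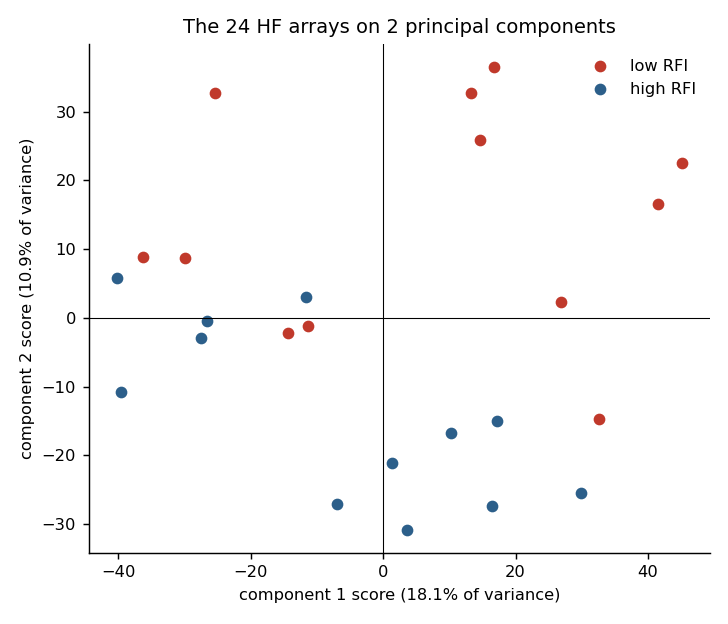
Scores of the 24 HF arrays on the first (x axis) and second (y axis) principal component of log2 levels, in arbitrary score units, with one point per pig. Low RFI pigs lie mostly above 0 on component 2 (9 of 12) and high RFI pigs mostly below (2 of 12 above), while both lines spread over the whole of component 1.

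Metallothioneins, small cysteine-rich proteins that bind zinc and copper, showed the largest differences among called genes. MT1A ranged from 3.24 to 6.86 with a median of 5.82 in low RFI pigs and from 0.31 to 6.86 with a median of 1.76 in high RFI pigs. All 12 low RFI pigs lay above the high RFI mean and 8 high RFI pigs lay below every low RFI pig, but the highest high RFI pig reached the top of the low RFI range. MT1A was 2.79 ± 0.68 (SE) higher in low RFI, a fold of 6.92 (limma, BH adjusted p = 0.034). Its 3 probes gave 2.79, 2.75 and 2.08; the first 2 share a run of 30 bases, and the last was not called.

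MT1G ranged from 2.12 to 4.998 (median 4.03) in low RFI and from 0.11 to 4.79 (median 0.94) in high RFI pigs, a difference of 2.21 ± 0.52 (adjusted p = 0.025). Of the 4 pigs with the highest MT1A within each line, 3 in low RFI and 4 in high RFI were also among the 4 with the highest MT1G of that line. MT1M, named here after its values were seen, was 0.58 ± 0.12 higher (adjusted p = 0.0077), from 6.42 to 7.18 in low RFI against 5.83 to 7.30 in high RFI pigs. The MT1G and MT1M probes are printed because metallothionein genes are near-copies of each other and the probes may share targets. They are given from 5′ to 3′ with their longest shared run of 16 bases in capitals; slid against each other without gaps they matched at 42 of 46 bases. Signals of these genes may therefore not be fully separate measurements.
MT1G: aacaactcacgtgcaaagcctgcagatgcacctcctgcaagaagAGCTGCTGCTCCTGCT
MT1M: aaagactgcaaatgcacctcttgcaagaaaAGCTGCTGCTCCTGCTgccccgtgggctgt

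On LF, where neither MT1A nor MT1G was called, MT1A had medians of 4.86 (low RFI) and 4.35 (high RFI) and a difference of 0.55 ± 0.68. The diet by line interaction of MT1A had an unadjusted p of 0.025 and an adjusted p of 1.0 by limma, so a difference of the line effect between diets was not shown. Of the other glutathione and antioxidant genes, SOD2, the mitochondrial superoxide dismutase, was 0.34 ± 0.09 higher (adjusted p = 0.065) and GPX3, the glutathione peroxidase secreted into plasma, was lower. GPX3 ranged from 7.15 to 8.57 (median 8.08) in low RFI and from 8.21 to 9.20 (median 8.45) in high RFI pigs, all 12 low RFI pigs being below the high RFI mean, and it differed by -0.65 ± 0.15 (adjusted p = 0.025) on HF, where 4 of its 6 probes were called, and by -0.77 ± 0.15 on LF. These were the 3 called genes among 28 tested members of that list, which had a median difference of 0.09 against 0.01 over all tested genes, of which 0.926% were called. The 9 SOD2 probes ranged from 0.01 to 0.72 in difference, and 3 of them were called. Of 6 neutrophil and mast cell markers tested, none was called and all 6 were below 0, with S100A8 at -0.79. Their summed level ranged from 4.52 to 6.23 in low RFI and from 5.13 to 7.02 in high RFI pigs, and its part in these results was not tested.

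**Figure D2:**
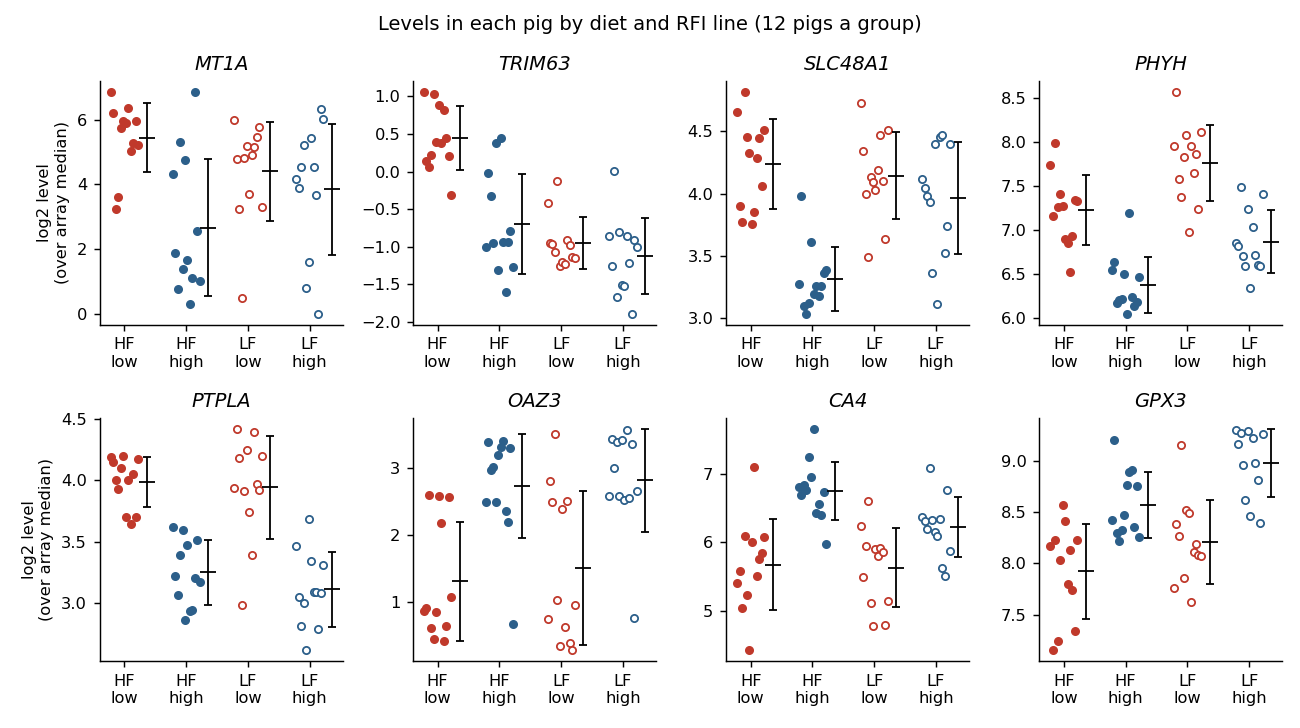
Log2 level above the array median (y axis) of the brightest probe of 8 called genes in each pig, by diet and line (x axis, 12 pigs per group; filled circles HF, open circles LF), with mean ± SD in black. On HF the lines are fully apart for PTPLA and overlap for the other genes; MT1A, TRIM63 and SLC48A1 differ by 0.55, 0.18 and 0.18 between lines on LF, against 2.79, 1.14 and 0.92 on HF.

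TRIM63 encodes the ubiquitin ligase MuRF1, known from wasting muscle. Its level ranged from -0.31 to 1.06 (median 0.39) in low RFI and from -1.60 to 0.45 (median -0.94) in high RFI pigs, with 9 high RFI pigs below every low RFI pig. TRIM63 was 1.14 ± 0.20 higher in low RFI (adjusted p = 0.00091), and its other probe, which shares no run longer than 7 bases with the first, gave 0.51. On LF the medians were -1.02 (low RFI) and -1.11 (high RFI), close to the high RFI median on HF. The probe was dim at these levels: in high RFI pigs on HF its mean was -0.69, with 11 of 12 arrays well above background. Whether dimness shrank the LF difference was not tested.

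FBXO32, the companion muscle ligase atrogin-1, was not called at its brightest probe (0.64 ± 0.18, adjusted p = 0.091), but 3 of its 5 probes were called with differences of 0.69, 0.72 and 0.54; it is named here after its values were seen. Its LF difference was -0.15. Of the 4 pigs with the highest TRIM63 within each line, 3 in low RFI and 1 in high RFI were among the 4 with the highest FBXO32 of that line. None of the 7 skeletal muscle markers tested was called, 5 others on the array were too dim to be tested, and their summed level was 6.07 to 6.94 in low RFI and 6.06 to 6.86 in high RFI pigs; their part in these results was not tested. Among 30 tested subunits of the constitutive proteasome none was called, with a median difference of 0.07 and 26 above 0.

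SLC48A1, which carries haem out of the lysosome, ranged from 3.76 to 4.81 (median 4.30) in low RFI and from 3.04 to 3.98 (median 3.26) in high RFI pigs. Only 1 high RFI pig reached into the low RFI range. The difference was 0.92 ± 0.14 (adjusted p = 0.00022) on HF and 0.18 ± 0.14 on LF, where the medians were 4.12 and 4.02. TUBA4A, an alpha tubulin, was 0.90 ± 0.18 higher (adjusted p = 0.0051), with 10 low RFI pigs above every high RFI pig, and its 3 probes gave 0.65 to 0.90 with LF differences of 0.14 to 0.18. Interaction p-values by limma were 0.0012 for TRIM63, 0.00065 for SLC48A1, 0.0067 for TUBA4A and 0.0038 for FBXO32 before adjustment, and 1.0 for each after it. TRIM25, a ubiquitin ligase of antiviral signalling, was the 1 called gene among 41 interferon-stimulated genes tested (0.52 ± 0.14, adjusted p = 0.068), and their median was 0.05, with 0.926% called over all tested genes.

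PHYH starts the peroxisomal alpha-oxidation of branched fatty acids. Its level ranged from 6.52 to 7.99 (median 7.27) in low RFI and from 6.05 to 7.20 (median 6.23) in high RFI pigs. The difference was 0.85 ± 0.15 (adjusted p = 0.0013) on HF and 0.90 ± 0.15 on LF, and all 6 probes were called on HF with differences of 0.72 to 0.92, of which 2 share a run of 57 bases.

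PTPLA, now named HACD1, dehydrates intermediates in the elongation of very long fatty acids. Every low RFI pig (3.64 to 4.20, median 4.03) lay above every high RFI pig (2.86 to 3.62, median 3.21), a difference of 0.74 ± 0.12 (adjusted p = 0.00055), with 0.83 ± 0.12 on LF. FAAH, which hydrolyses fatty acid amides such as the endocannabinoid anandamide, was 0.77 ± 0.19 higher (adjusted p = 0.043), with 0.88 ± 0.19 on LF, and its lines overlapped more, since only 3 high RFI pigs lay below every low RFI pig. PDK1, a kinase that turns off pyruvate dehydrogenase, ranged from 3.23 to 4.15 in low RFI and from 2.43 to 3.45 in high RFI pigs. It was 0.68 ± 0.10 higher (adjusted p = 0.00017) on HF, with 0.28 ± 0.10 on LF. Its 3 probes gave 0.17 to 0.68 on HF, 2 of them called, and their mean gave 0.46. PDK1 was the 1 called gene of 22 in the glycolysis and pyruvate oxidation list, whose median was 0.05 (0.926% of all tested genes were called).

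The main routes of fat metabolism held no called gene at its brightest probe. None of 18 fatty acid synthesis genes was called (median 0.01), nor any of 21 genes of triglyceride storage and lipolysis (median 0.08, 18 above 0), of 24 fatty acid oxidation genes (median 0.09, 19 above 0) or of 39 oxidative phosphorylation subunits (median 0.04, 30 above 0). Over all tested genes 5757 of 10588 were above 0. In simulated data 17.9% of changes of 0.25 and 82.1% of changes of 0.5 were called, so small differences in these lists may have been missed. The largest single values in these lists were -0.67 for the fatty acid elongase ELOVL6 and 0.61 for the lipid droplet protein PLIN2, which missed the threshold. FASN differed by -0.08 (95% interval -0.23 to 0.07), ADIPOQ by 0.04 (-0.10 to 0.19), PPARG by 0.14 (-0.06 to 0.33) and LEP by 0.19 (-0.22 to 0.61), none of them called. MLX, the partner through which ChREBP binds DNA, was called lower: 2.16 to 3.08 (median 2.40) in low RFI against 2.88 to 3.45 (median 3.13) in high RFI pigs, a difference of -0.65 ± 0.11 (adjusted p = 0.0012). Its other probe, with a mean level of -1.40, gave -0.09, and the mean of both was -0.37 (adjusted p = 0.0091).

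**Figure D3:**
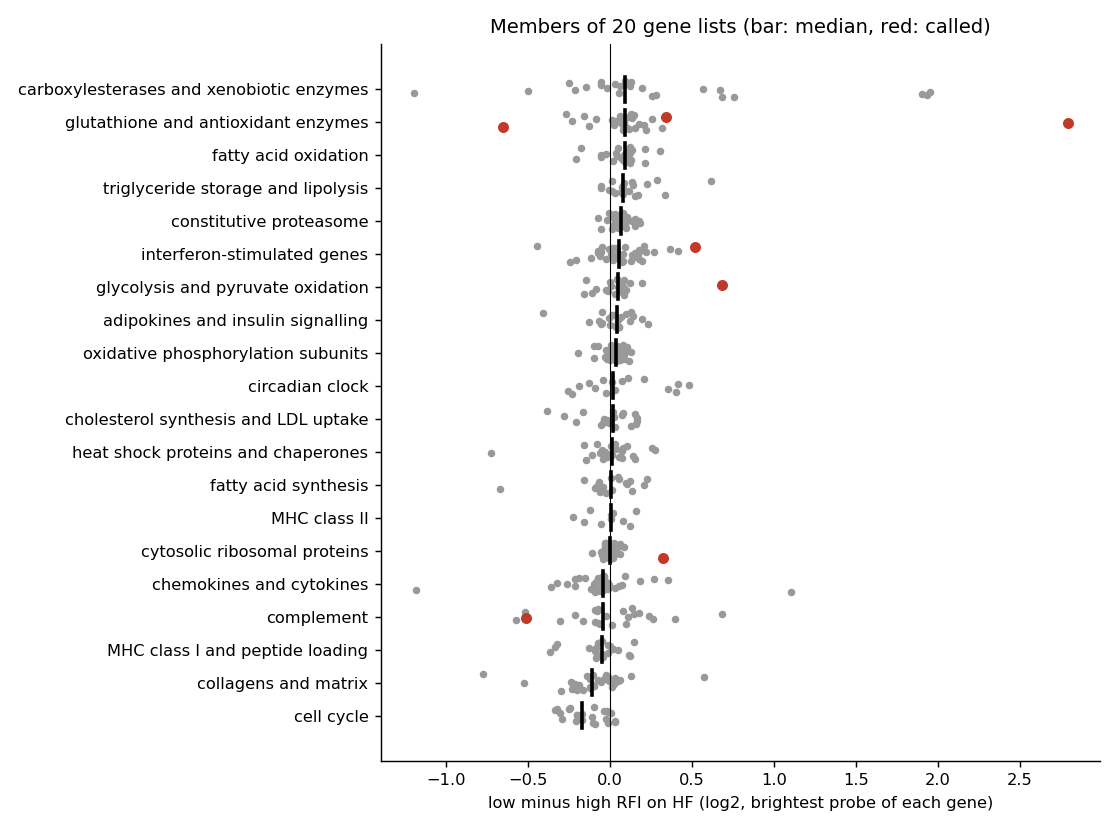
Low minus high RFI differences on HF (x axis, log2) of the brightest probe of each tested member of 20 gene lists (rows, ordered by median). Black bars are list medians, which lie between -0.17 and 0.09, and red points are the called genes, with MT1A at 2.79, PDK1 at 0.68, TRIM25 at 0.52, SOD2 at 0.34, RPL14 at 0.32, C7 at -0.51 and GPX3 at -0.65.

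Some lists leaned to one side without called members. In the cell cycle list 23 of 26 genes were below 0 (median -0.17 on HF and -0.16 on LF), and in the collagen and matrix list 27 of 34 were (median -0.11 on HF and 0.02 on LF). The laminin LAMB2, not in that list and named after its values were seen, was called higher (0.37 ± 0.07, adjusted p = 0.0018). Chemokines and cytokines had 32 of 40 below 0 with a median of -0.04. Endothelial markers were below 0 for 8 of 9 genes (median -0.13), and fibroblast and preadipocyte markers for 9 of 11 (median -0.12). Their summed levels were 8.95 to 9.55 and 10.88 to 12.29 in low RFI against 8.83 to 9.71 and 11.02 to 12.29 in high RFI pigs. In a tissue sample, fewer cells of a type and less RNA per cell cannot be told apart.

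The carboxylesterases CES1 and CES3, which hydrolyse esters of lipids and drugs, had large differences that were not called. CES1 ranged from 4.81 to 8.44 (median 7.11) in low RFI and from 0.15 to 7.87 (median 5.93) in high RFI pigs, a difference of 1.93 ± 0.68 (adjusted p = 0.228). CES3 gave 1.90 ± 0.67 (adjusted p = 0.236), and the 4 highest pigs of each line were the same for both genes. The SDs of CES1 and CES3 were nearly equal, at 0.965 and 0.963 in low RFI and 2.67 and 2.66 in high RFI pigs. Their signals may not be separate measurements, and whether the probes share targets was not tested. Of 25 tested genes in the xenobiotic list 7 had an unadjusted p below 0.05, against 9.6% of all tested genes, and none was called. Its lowest and highest members were the cytochromes CYP2B22 at -1.20 ± 0.41 (adjusted p = 0.211) and CYP2E1 at 1.95 ± 0.998 (adjusted p = 0.54). EPHX1, the microsomal epoxide hydrolase, missed at its brightest probe (0.67 ± 0.19, adjusted p = 0.088) but was called at its other probes (0.75 and 0.52). The cytochrome CYP1A2, which is not in that list, was called (0.54 ± 0.15, adjusted p = 0.073), with a difference of 0.56 on LF. CES1, CES3, EPHX1, CYP2B22, CYP2E1 and CYP1A2 are named after their values were seen.

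Several called genes act in signalling and immunity. TRAF6, the adaptor of Toll-like and interleukin-1 receptors, ranged from 3.82 to 4.79 (median 4.57) in low RFI and from 2.34 to 4.71 (median 3.22) in high RFI pigs, and was 1.17 ± 0.30 higher (adjusted p = 0.046). Its other probe differed by 0.14 and was not called, and the mean of both, 0.66, missed the threshold (adjusted p = 0.086). XCL1, a chemokine of activated T and NK cells, was 0.66 ± 0.18 higher (adjusted p = 0.066) with all 3 probes called, while none of 12 T and NK cell markers was called (median 0.09). BCL2L11, the pro-apoptotic protein BIM, was 0.58 ± 0.16 higher at its brightest probe (adjusted p = 0.0798), whereas its other probes gave -0.11 and -0.02.

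The probe that the array names HLA-B, a human name for an MHC class I gene, was lower in low RFI (-0.73 ± 0.18, adjusted p = 0.036), from 4.63 to 5.75 in low RFI against 4.86 to 6.90 in high RFI pigs. Pig class I genes are near-copies of each other, so which of them it measures is uncertain, and none of 20 genes of the class I list was called at its brightest probe (median -0.05). A further probe, A_72_P414198, which the array describes as a pig class I antigen, was also lower (-1.86 ± 0.47, adjusted p = 0.044), with -1.92 on LF. SLA-1, a class I gene, had 1 of 7 probes called, at 0.83, with the other 6 between -0.93 and -0.08; these class I probes were chosen after their values were seen. The complement component C7 was lower (-0.51 ± 0.14, adjusted p = 0.071) as the 1 called gene of 24 in the complement list, again beside 0.926% of all tested genes. PGLYRP4, which binds bacterial peptidoglycan, differed by -0.50 ± 0.14 (adjusted p = 0.079), and PARVG, a parvin that links integrins to actin, by -0.47 ± 0.10 (adjusted p = 0.0072). C7, PGLYRP4 and PARVG were dim, with mean levels of -0.995, -0.54 and -1.26 in low RFI and -0.48, -0.04 and -0.79 in high RFI pigs. C7 and PARVG were each well above background on 11 of 12 low RFI arrays.

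Among the remaining falls the largest was OAZ3, an antizyme that binds ornithine decarboxylase and is best known from testis. Its level ranged from 0.41 to 2.60 (median 0.88) in low RFI and from 0.66 to 3.41 (median 2.99) in high RFI pigs. The lines overlapped, with 7 high RFI pigs above every low RFI pig and 4 low RFI pigs below every high RFI pig. OAZ3 differed by -1.43 ± 0.36 (adjusted p = 0.042) on HF and by -1.31 ± 0.36 on LF, and 2 of its 3 called probes have the same 60 bases.

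CA4, a membrane-bound carbonic anhydrase of capillaries, ranged from 4.43 to 7.10 (median 5.67) in low RFI and from 5.98 to 7.65 (median 6.75) in high RFI pigs, with 8 low RFI pigs below every high RFI pig. The difference was -1.08 ± 0.21 (adjusted p = 0.0037) on HF and -0.59 ± 0.21 on LF; the 60 bases of its 2 probes are the same, so they are 1 measurement. Further called genes that were lower in low RFI were the potassium channel KCNB2 (-0.85 ± 0.23), FOLH1B (-0.67 ± 0.15), the synaptic adhesion protein LRFN5 (-0.55 ± 0.15), the formin DIAPH3 (-0.52 ± 0.14) and the nucleolar protein WDR36 (-0.51 ± 0.11), with adjusted p from 0.013 to 0.079. KCNB2, LRFN5 and DIAPH3 were dim, with mean levels of -1.04, -1.06 and -0.95 in low RFI and -0.19, -0.51 and -0.43 in high RFI pigs. In low RFI they were well above background on 11, 10 and 11 of 12 arrays, respectively. Those that were higher included C4H8orf37 (0.81 ± 0.16), the pre-mRNA cleavage factor CPSF3 (0.74 ± 0.15) and the synaptic scaffold DLG2 (0.66 ± 0.18), with adjusted p from 0.0062 to 0.068. For CPSF3 the other probe gave 0.17 and was not called.

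Probes of one gene did not always tell the same story. Of the 98 called gene names, 46 had a single tested probe and 52 had several. For 28 of these 52 every probe moved the same way with an unadjusted p below 0.05, for 14 every probe was called, and for 11 at least 1 probe had the opposite sign. RPL14, a protein of the large ribosomal subunit, was among the steadiest, with 6 of 7 probes called and differences of 0.32 to 0.51. RPL38, another ribosomal protein, was named after its values were seen. The brightest RPL38 probe, in levels of 9.07 to 9.56 over both lines, gave -0.11 ± 0.05, whereas a second probe ranged from 6.205 to 8.48 (median 7.82) in low RFI and from 5.70 to 7.73 (median 5.87) in high RFI pigs, a difference of 1.82 ± 0.28 (adjusted p = 0.00017). That probe differed by 1.36 on LF.

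LZTFL1, a regulator of ciliary trafficking, gave -0.01 at its brightest probe and -0.91 ± 0.16 (adjusted p = 0.0016) at the other. WDHD1, a DNA replication factor called lower at -0.73 ± 0.18 (adjusted p = 0.032), gave 0.04 and -0.21 at its dimmer probes. For PTGR1, which inactivates leukotrienes and prostaglandins, the brightest probe gave 0.28 and the other 3 gave 0.88 to 0.98, all called. At O9328 no high RFI pig (5.32 to 6.27) reached the low RFI range (6.37 to 7.19). A_72_P502451 and A_72_P339888 are printed from 5′ to 3′ because they share a run of 56 bases, marked in capitals, and so PTGR1 has 3 separate stretches on the array, of which this one and that of O9328 held the called probes. LZTFL1 and PTGR1 were also chosen after their values were seen.
A_72_P502451: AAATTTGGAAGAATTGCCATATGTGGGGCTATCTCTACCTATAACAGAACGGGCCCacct
A_72_P339888: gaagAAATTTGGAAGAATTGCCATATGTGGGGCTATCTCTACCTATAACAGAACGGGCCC

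**Figure D4:**
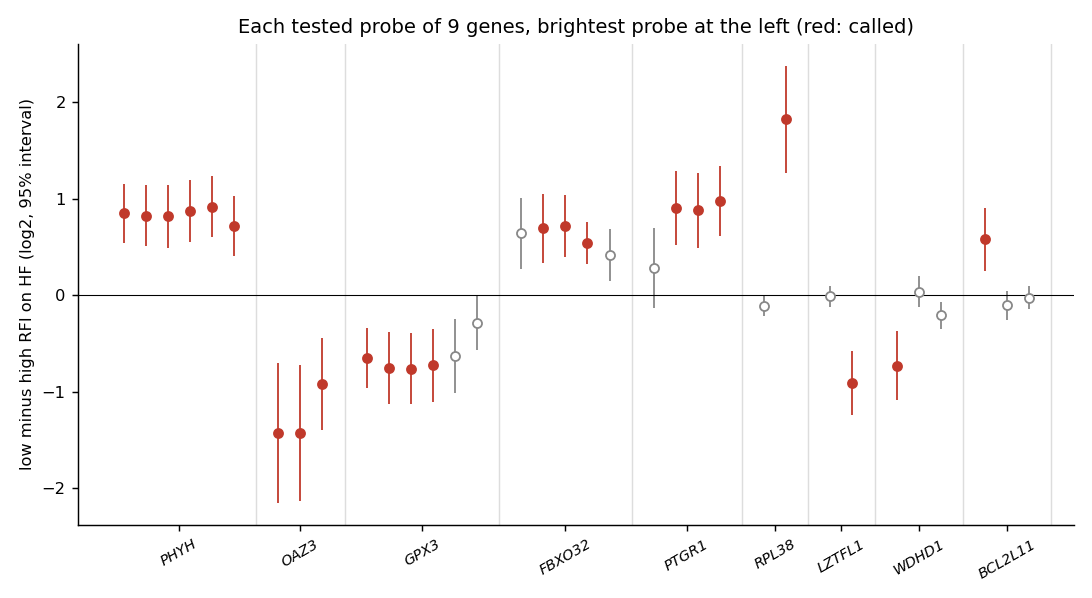
Low minus high RFI difference on HF (y axis, log2, with 95% interval) of every tested probe of 9 genes (x axis, brightest probe of each gene at the left). Red filled points are called probes: the 6 PHYH probes lie together at 0.72 to 0.92, whereas RPL38, LZTFL1 and WDHD1 each have a called probe beside a probe near 0.

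Called probes without a symbol, of which a few are described here after their values were seen, held some of the largest values. A_72_P788198 ranged from 1.37 to 5.69 (median 3.62) in low RFI and from 0.46 to 1.998 (median 1.32) in high RFI pigs, a difference of 2.42 ± 0.55 (adjusted p = 0.018), and a second probe to the same unnamed transcript gave 1.41. A_72_P040846, which the array describes by likeness to the rat homologue of C8orf37, was 2.09 ± 0.40 higher (adjusted p = 0.0027), with C4H8orf37 itself at 0.81. A_72_P040016 separated the lines fully, from 2.40 to 3.66 in low RFI and from 3.79 to 4.58 in high RFI pigs, with a difference of -1.09 ± 0.17 (adjusted p = 0.00027) on HF and -1.01 on LF.

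The order of genes along the pig chromosomes was used to count called genes that are neighbours. Of the 98 gene names, 85 were placed in the RefSeq gene table, and 22 of these had another called gene among the 5 tested genes on either side. Of 850 such neighbouring places 22 held a called gene, or 2.59%, against 0.890% of all placed genes; no test was made of this difference. The neighbours formed 11 pairs, 8 with both genes moving the same way. Among genes with any called probe there were 17 such pairs, 10 of them moving the same way. Since 64 of the 98 called gene names were higher, many pairs would share a direction in any case, and these counts were not tested. PHYH and OPTN, an autophagy receptor (0.48), were adjacent among tested genes, as were IPP (0.33) and CCDC17 (0.49). SLC48A1 had 1 tested gene between it and RPAP3 (0.39), and TUBA4A had 2 between it and DNPEP (0.22). C4H8orf37 and MTERF3 (-0.30), with 1 gene between them, moved in opposite directions.

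The LF pigs gave a separate measurement of the sign and size of the line difference. Of the 432 probes called on HF, 422 had the same sign on LF (97.7%), against 61.8% of all tested probes, and 303 had the same sign with an unadjusted p below 0.05 on LF, or 70.1% against 5.73%. None had the opposite sign at that p. Among the 98 called gene names 96 kept the sign, or 98.0% against 61.7% of all tested genes. In 65 of the 98 the unadjusted LF p was also below 0.05, or 66.3% against 4.97%. Unlike the sign and size, the LF p was not separate from the HF call. The spread of each probe was fitted over the arrays of both diets, so its SE was the same on HF and LF. Probes called on HF partly for a small SE would pass more easily on LF too. How far this raised the percentages at p below 0.05 was not tested. HAUS8 (0.26 on HF, -0.06 on LF) and C20ORF111 (-0.28 on HF, 0.10 on LF) were the exceptions in sign. The LF difference was 0.65 of the HF difference at the median of called probes, which were chosen for their HF value. By the same thresholds 180 probes were called for the line on LF (0.413%), and 82 of the 432 were called in the same direction.

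No probe passed the BH threshold for the diet by line interaction by limma. Of 43614 tested probes, 1018 had an unadjusted p below 0.05 and 140 had p below 0.01. Both counts are fewer than these thresholds pass on average where no probe has an interaction. The smallest adjusted p was 1.0. The two-way ANOVA of the study's methods also called none, with 999 probes at an unadjusted p below 0.05.

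**Figure D5:**
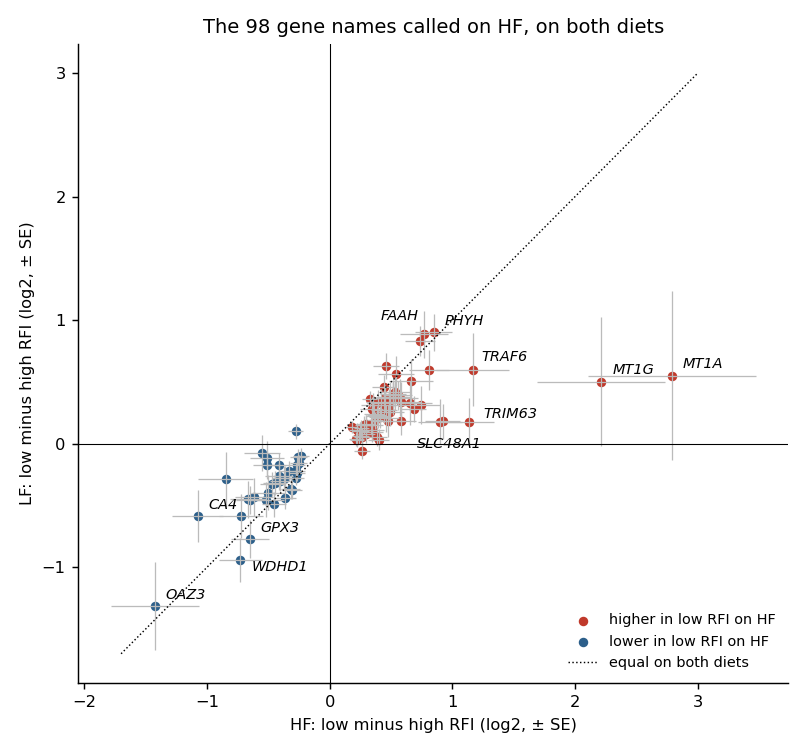
Low minus high RFI difference on HF (x axis) and on LF (y axis), in log2 with SE bars, for the 98 gene names called on HF; the dotted line marks equal differences. PHYH, FAAH, OAZ3 and WDHD1 lie near the line, while MT1A, MT1G, TRIM63 and SLC48A1 lie between 0.18 and 0.55 on LF.

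Arrays were spread evenly over 6 slides and 2 scan days, each slide with 2 arrays of every group. Differences for the 33 named called genes had the same sign within each scan day. These genes were chosen for a large difference over both days, which is the mean of the 2 day values, so equal signs were likely beforehand. With fewer pigs, 6 of the 33 kept their call within day 1 and 2 within day 2. MT1A differed by 2.21 and 3.38 on the respective days, TRIM63 by 1.02 and 1.25, PHYH by 1.095 and 0.60, CA4 by -1.58 and -0.57 and OAZ3 by -1.88 and -0.97.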

How the data were processed

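The deposited scanner files hold, per spot, Agilent intensity values of one Cy3-labelled sample per array. The deposited normalized table holds log2 signals; each of its 38142 entries equalled 1 scanner spot on all arrays, but only 2 carried that spot's feature number, so genes were named from the scanner files. The submitters' notes name R 2.10.0. Here the log2 median signal minus the array median over non-control probes was used, 198 non-uniform spots over all arrays were set aside (none in a called probe on HF), and spots of a probe were averaged. Probes well above background on at least 12 HF arrays were tested.

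Means of the 4 groups were fitted over all 48 arrays with lmFit and moderated by eBayes of limma 3.58.1 (R 4.3.3). Thresholds were an unadjusted p of 0.01, a fold of 1.1 and a BH p of 0.08. Component scores were compared with 100000 permutations. The fit was tested on simulated data. The number of arrays limits the precision.

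Named genes were the 15 largest rises and 15 largest falls among called genes, up to 3 called genes per list, and LEP, ADIPOQ, FASN and PPARG; some results are not reported here. The comparison, lists and rules were chosen with earlier results of these data known. Gene order came from RefSeq (Sscrofa11.1). The sources used here do not state litters, so the p-values measure the spread between these pigs. The alternatives tried are given in the closing section.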

Additional observations from a re-analysis of the deposited data

How the results depend on the processing

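Every one of the 33 named called genes kept its direction under all alternatives that could be run, which used the same HF pigs that these genes were chosen from. The 432 probes and 98 genes called stayed within 1.5 times under other centrings (75th percentile, quantile), under the processed signal, normexp, other probe filters, HF arrays alone, slide or scan day as a block, array weights and the ANOVA of the methods. Centring on the E1A spike-ins gave 276 probes, 58 genes and 264 probes with the same direction on LF. Within scan day 1, with fewer pigs, these were 65, 18 and 63, and within scan day 2 they were 40, 6 and 38. A BH p below 0.05 left 276, 62 and 271, and a fold above 1.5 left 149, 23 and 147. With the replicate number as a block they were 705, 169 and 669. Same-numbered HF pairs correlated at -0.205 to 0.405 (median 0.122), 6 of 12 above 0.1, and 3 of 12 low RFI arrays correlated best with their own number. Replicate numbers follow the slides and the labels do not state whether same-numbered pigs are related, so these values cannot decide whether the numbers pair the pigs. The interaction stayed at 0 probes in every alternative that could fit it, which HF arrays alone could not. Scaling each probe took the second component's difference to 48.4 with an adjusted p of 0.253 in the permutation test. The mean of a gene's probes turned RPL38 from -0.11 to 0.86. Of up to 17 alternatives, PGLYRP4 lost its call in 12, BCL2L11 and DIAPH3 in 9 each, XCL1, C7 and SOD2 in 7 each, and DLG2 and TRIM25 in 6 each; the cause was not tested.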
